A study of Mus musculus with 29 samples.

Results

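Cytosolic ribosomal protein (RP) genes encode the protein parts of the ribosomes that translate messenger RNA in the cytoplasm. They were taken from the expression table by symbol: Rpl or Rps followed by a number and at most 1 letter, with Rplp0, Rplp1, Rplp2 and Rpsa added. The rule took 80 of 30025 genes, 48 for the large subunit and 32 for the small subunit. Of these, 78 (46 large and 32 small) passed the filter on low values and were tested among 15409 genes. The 2 that did not pass were the paralogues Rpl3l and Rpl39l.

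Each ribosome joins a small subunit, which holds the messenger RNA and reads its codons, to a large subunit, which links the amino acids into protein. A finished subunit needs a copy of nearly every one of its proteins, so their genes are usually read out together and at high levels. Blood stem cells make protein slowly compared with the progenitors they give rise to, and losing a copy of any of several RP genes causes Diamond-Blackfan anaemia, a failure of red cell production.

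RNA-Seq libraries had been made from 3 bone marrow populations of C57BL/6J mice aged 12.42 to 13.85 weeks: CD150hi hematopoietic stem cells (HSC), CD150lo HSC, and CD150neg cells, which the labels call HSC and the paper calls multipotent progenitors (MPP). The mice were wild type (WT) or 5A3+/del, which carry on 1 chromosome a germline deletion of the part of band 5A3 bounded by Fbxl13 and Srpk2, so the sorted cells and the marrow around them all carry it. There were 29 libraries, 5 per genotype and population but 4 for 5A3+/del CD150neg, and mouse codes in the labels tie the populations of each of 10 mice. Values in FPKM, which divide a gene's fragments by its exon length and by library depth, rest on 21229674 to 38797038 fragments per library, with a median of 26966946.

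RP genes are compared below as normalized FPKM, which are quantile normalized over all libraries on the log2(FPKM + 1) scale and then taken back from the logarithm. Quantile normalization gives each rank a fixed value, so equal values recur, above all among the most abundant genes. Differences are log2 on this scale, and a gene is called when its limma adjusted p over all genes tested is under 0.05. Values are listed in the order of mice 1 to 5 of each genotype, and ± gives the SD over the libraries of a group.

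The populations were sorted as c-kit+, Sca-1+ and lineage-negative cells without CD41 and CD48, and divided by CD150. The gene of CD150, Slamf1, had a mean FPKM of 14.4 in CD150hi, 1.62 in CD150lo and 0.146 in CD150neg of WT mice, and 16.1, 0.957 and 0.0698 in 5A3+/del mice, in the order of the sort labels. The last mean rests on mouse 4 and is 0.0152 without it. Flt3, a receptor of multipotent progenitors, had the reverse order in both genotypes, from 2.86 to 51.4 in WT and from 3.29 to 46.8 in 5A3+/del. Cd48, whose product the sort excludes from all 3 populations, had 0.345, 2.71 and 6.37 in WT and 0.8294, 3.45 and 6.69 in 5A3+/del. The gene of CD41, which the sort also excludes, did not rise with Cd48. Summed, both genes had means of 2.88, 4.53 and 8.17 in WT. In 5A3+/del the summed means were 4.78, 5.56 and 8.38.

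WT mouse 3 stands apart in Xist, the RNA of the inactive X chromosome: its FPKM was 303 in CD150hi, 234 in CD150lo and 319 in CD150neg. In the other 9 mice Xist was close to 0, with group medians no higher than 0.236. The labels give no sex.

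WT mouse 1 stands apart in markers of granulocytes and monocytes (Elane, Mpo, Ngp, S100a8, S100a9, Camp, Ltf, Ctsg and Csf1r, all 9 of 9 in the table). Their summed FPKM was 948, 339.9, 60.4, 133 and 315 in the WT CD150hi libraries and 1406, 132, 30.5, 281 and 199 in WT CD150lo, so mouse 1 was highest in both. In WT CD150neg the sums were 128, 19.3, 55.7, 86.0 and 64.1. In 5A3+/del CD150hi they were 22.4, 124, 16.9, 18.5 and 15.5. All but the 124 of 5A3+/del mouse 2 were below every WT CD150hi library. The sums were 22.5, 124, 372, 172 and 154 in 5A3+/del CD150lo and 7.25, 66.3, 255 and 113 in 5A3+/del CD150neg. The most abundant was S100a8, a calcium-binding protein of neutrophils, at 478, 146, 16.8, 54.9 and 152 FPKM in WT CD150hi and 0, 62.5, 7.22, 8.17 and 11.3 in 5A3+/del CD150hi. The sort enriched cells for c-kit and its lineage stain included Gr-1, a surface marker of granulocytes and some monocytes, a gate that would remove cells carrying it. Fewer cells of a type and less RNA per cell cannot be told apart in these sorted pools.

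The 80 RP genes held 7.55, 7.15, 6.95, 7.24 and 7.82 percent of all FPKM in the WT CD150hi libraries. They held 7.84, 6.78, 6.45, 7.63 and 6.09 percent in WT CD150lo and 7.08, 6.46, 6.07, 6.67 and 6.42 percent in WT CD150neg. The WT means from CD150hi to CD150neg were 7.34 ± 0.344, 6.96 ± 0.754 and 6.54 ± 0.370, and the ranges of neighbouring populations overlap. Within mice the share was higher in CD150hi than in CD150neg in 5 of 5 WT mice. In 5A3+/del mice the RP shares were 6.68, 7.04, 7.74, 5.81 and 6.41 percent in CD150hi, 5.77, 6.22, 6.24, 5.94 and 6.43 percent in CD150lo and 6.38, 6.78, 6.99 and 6.24 percent in CD150neg. Their means, 6.74 ± 0.716, 6.12 ± 0.262 and 6.60 ± 0.351, are lowest in CD150lo rather than CD150neg, and the share was higher in CD150hi than in CD150neg in 3 of 4 mice with both. Mitochondrially encoded genes held a mean of 33.4 ± 2.73 percent of FPKM in WT CD150hi and 36.3 ± 3.64 percent in 5A3+/del CD150hi. With mitochondrially encoded genes left out of the total, the mean RP share was 11.0 ± 0.806, 10.7 ± 0.741 and 9.85 ± 0.422 percent from CD150hi to CD150neg in WT. In 5A3+/del it was 10.6 ± 0.914, 9.61 ± 0.536 and 10.0 ± 0.688 percent. So computed, it was higher in CD150hi than in CD150neg in 5 of 5 WT and 4 of 4 5A3+/del mice.

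The summed FPKM of large subunit genes was slightly below that of small subunit genes in every library. In WT the ratio of large to small was 0.971, 0.962, 0.940, 0.957 and 0.962 in CD150hi, 0.940, 0.959, 0.968, 0.973 and 0.935 in CD150lo and 0.973, 0.958, 0.956, 0.967 and 0.955 in CD150neg. In 5A3+/del it was 0.950, 0.958, 0.948, 0.941 and 0.950 in CD150hi, 0.933, 0.950, 0.942, 0.963 and 0.943 in CD150lo and 0.958, 0.984, 0.948 and 0.948 in CD150neg. The ranges of all 6 groups overlap, with means from 0.946 to 0.962. The ratio rests on a few abundant genes: without the 3 most abundant of each subunit (Rpl32, Rplp1 and Rpl37a, and Rps27, Rps24 and Rps3a) it is above 1, with means of 1.03 ± 0.0115 in WT CD150hi and 1.07 ± 0.0167 in WT CD150neg. So computed, the libraries of these 2 groups are apart (1.018 to 1.044 against 1.046 to 1.081), as are those of WT CD150lo (1.008 to 1.046) and 5A3+/del CD150lo (1.053 to 1.094). From medians instead of sums it is 0.670 ± 0.0316 in WT CD150hi and 0.663 ± 0.0447 in WT CD150neg. No p is given for shares or ratios.

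**Figure D1:**
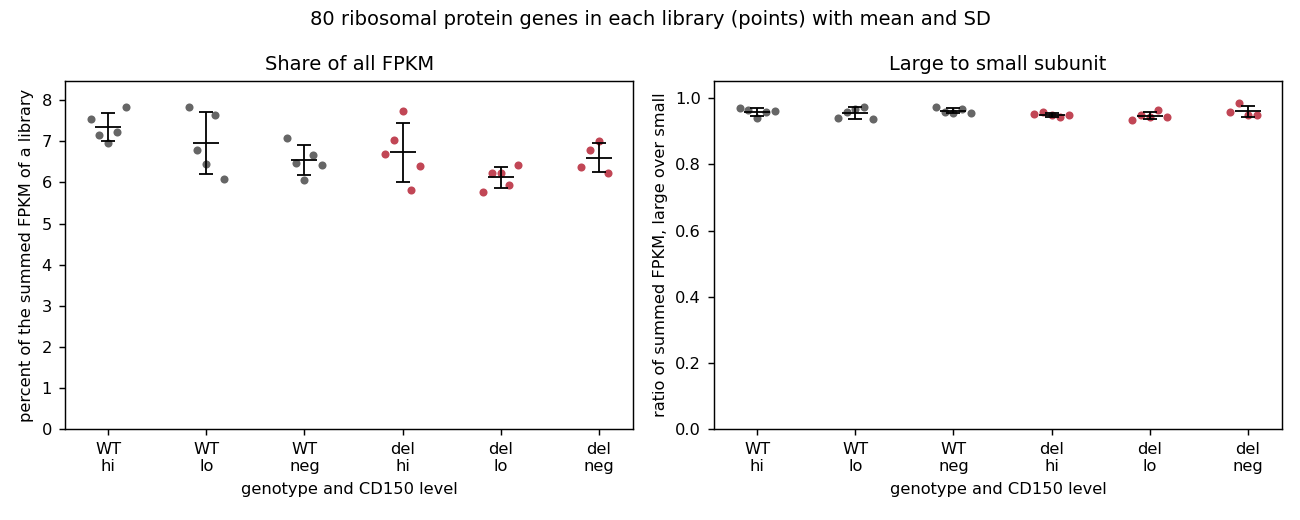
RP genes in each library by genotype and population: share of all FPKM in percent (y axis), and the ratio of summed FPKM of large to small subunit genes (y axis). The share is highest on average in WT CD150hi (7.34 percent) and lowest in 5A3+/del CD150lo (6.12 percent), while the ratio stays between 0.933 and 0.984.

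RP genes are among the most abundant messages of these cells, with a median of 269.9 mean FPKM against 5.92 over all genes tested. The median was 216 for large and 322 for small subunit genes. Highest was Rps27, a zinc-binding protein of the small subunit, at a mean of 4204 FPKM over all libraries, the rank 6 of all genes. Its FPKM were 5627, 5255, 3902, 4536 and 5437 in WT CD150hi and 4010.4, 3806, 3784, 4177 and 3239 in WT CD150neg, overlapping. Next came Rpl32 at 2702, Rplp1 at 2279 and Rps24 at 1771 FPKM. Lowest of those tested were Rpl24, a protein of the bridge between the subunits, at 17.98 FPKM and Rpl12, part of the base of the P stalk, at 26.1 FPKM. FPKM divides by the length of all annotated exons of a gene merged. That length is 6029 bases for Rpl24, 2612 for Rpl12 and 345 for Rps27. The ranking of RP genes, and comparisons of large with small subunit genes within a library, thus depend on annotated length too.

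Many RP genes have near-identical processed pseudogenes, so reads may be shared between a gene and its copies, and the value of each member is uncertain to that extent. The table names 155 such pseudogenes. From CD150hi to CD150neg they held a mean of 1.73 ± 0.0604, 1.68 ± 0.142 and 1.60 ± 0.0538 percent of FPKM in WT. In 5A3+/del they held 1.63 ± 0.165, 1.53 ± 0.0791 and 1.64 ± 0.0928 percent. Of 114 pseudogenes tested, 34 were called higher in WT CD150hi than in WT CD150neg, beside 5.47 percent of all genes tested, with a median of 0.30. Between genotypes in CD150hi their median was −0.27, with 96 of 114 below 0 and only Rpl12-ps1 called, lower (log2 −0.89, limma adjusted p 0.0158), beside 0.123 percent of all genes.

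In WT mice, 21 of 78 RP genes were higher in CD150hi than in CD150neg and 0 were lower, where 5.47 percent of all genes tested were called higher. At unadjusted p under 0.05 there were 41, beside 21.8 percent of all genes. The difference was above 0 for 71 RP genes and below 0 for 7, with a median of 0.20 beside −0.01 over all genes tested. Large and small subunit genes had like values: 13 of 46 large and 8 of 32 small were called, with 41 large and 30 small above 0 and medians of 0.20 and 0.20. For 20 RP genes every CD150hi library was above every CD150neg library, which 4.60 percent of all genes did. The count of 21 became 8 without WT mouse 2, 10 without WT mouse 1 or WT mouse 5, 11 without WT mouse 3, 13 without WT mouse 4, and 14 without 5A3+/del mouse 3. It was 26 with no normalization, 27 with no filter or with a filter at 10 FPKM, 28 under median scaling and 29 with a mean-variance trend, but 5 with libraries rescaled to the total without mitochondrially encoded genes and 6 with only the WT CD150hi and CD150neg libraries in the fit.

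**Figure D2:**
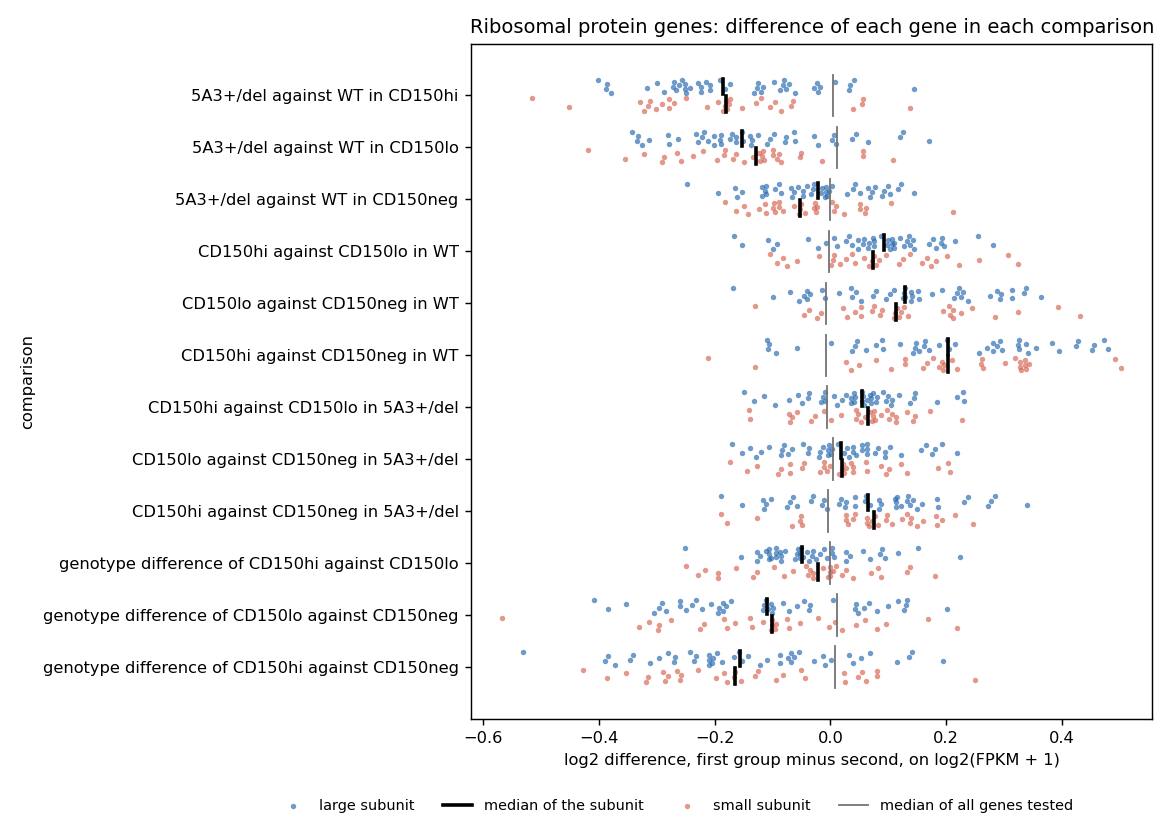
Log2 difference (x axis, first group minus second) of each of the 78 RP genes tested, in blue for the large and red for the small subunit, with 1 line of points for each comparison (y axis); black bars are medians of a subunit and grey bars the median of all genes tested. In WT CD150hi against CD150neg 71 lie above 0, and in 5A3+/del against WT CD150hi 69 lie below 0.

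Rpl26, a protein beside the mouth of the exit tunnel of the large subunit, had the smallest adjusted p. Its normalized FPKM were 300.0, 308, 272, 272 and 305 in WT CD150hi and 231, 201, 206, 206 and 201 in WT CD150neg. All CD150hi libraries were higher (log2 0.48, standard error 0.0890, limma adjusted p 0.000535). Over the alternatives its adjusted p ranged from 0.0000210 to 0.0243, a call under each of them. Rpl7, a large subunit protein bound to the long ribosomal RNA, had 208, 235, 242, 268 and 262 in CD150hi and 176, 170.4, 171, 188 and 179.6 in CD150neg. The groups do not overlap (log2 0.45, standard error 0.0898, limma adjusted p 0.00113), and the alternatives give 0.0000579 to 0.0466. Rpl26 and Rpl7 are the only 2 of the 21 called under every alternative.

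Rpl27a, a large subunit protein whose mutation makes mice anaemic, had 131, 118, 97.6, 117 and 114 in WT CD150hi and 76.3, 80.8, 88.2, 88.8 and 84.0 in WT CD150neg. No libraries overlap (log2 0.46, standard error 0.0987, limma adjusted p 0.00253; 0.000433 to 0.0770 over the alternatives). Rps14, a small subunit protein whose loss underlies the anaemia of human 5q deletions, had 574, 523, 674, 523 and 523 against 415, 392, 383, 421 and 368. The lowest CD150hi library exceeds the highest CD150neg library (log2 0.50, standard error 0.110, limma adjusted p 0.00287; 0.000493 to 0.135 over the alternatives). Rpl13 of the large subunit had 326, 331, 318, 311 and 349 against 242, 223, 248, 266 and 235. It too was higher without overlap (log2 0.43, standard error 0.0996, limma adjusted p 0.00493; 0.000699 to 0.0795 over the alternatives). Rpl7, Rpl13, Rpl26, Rpl27a and Rps14 are called whichever mouse is left out.

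The calls of Rps13, Rpl36a and Rps18 depend on single mice. Rps13 of the small subunit had 329, 298, 326, 331 and 334 in WT CD150hi and 282, 251, 238, 264 and 255 in WT CD150neg. It was higher in every CD150hi library (log2 0.33, standard error 0.0866, limma adjusted p 0.0138; 0.000982 to 0.141 over the alternatives), and the call ends without WT mouse 3 (0.0724) or WT mouse 4 (0.0546). Rpl36a of the large subunit had 189, 186, 189.7, 187 and 203 against 118, 136, 149, 153 and 157. It was higher without overlap (log2 0.42, standard error 0.113, limma adjusted p 0.0144; 0.00167 to 0.196 over the alternatives), and the call ends without WT mouse 1 (0.0836) or WT mouse 2 (0.0558). Rps18, in the head of the small subunit where it touches the large one, had 272, 239.8, 222, 262 and 259.9 against 222, 191, 192, 195 and 188. Here the lowest CD150hi and the highest CD150neg library have the same value (log2 0.34, standard error 0.0930, limma adjusted p 0.0161; 0.00271 to 0.130 over the alternatives), and the call ends without WT mouse 2 (0.0545), 4 (0.0818) or 5 (0.0549).

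**Figure D3:**
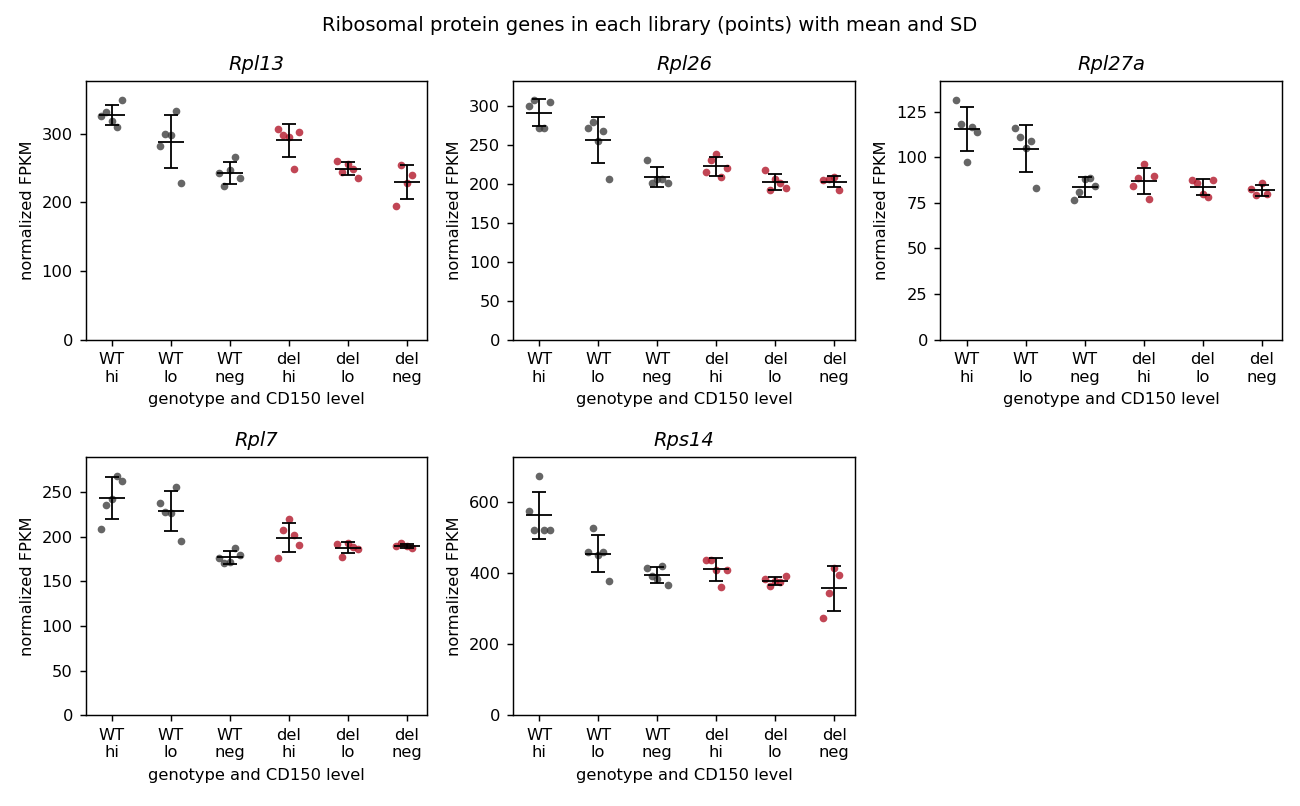
Normalized FPKM (y axis) of 5 RP genes called whichever mouse is left out in WT CD150hi against CD150neg, in each library (points, with mean and SD) by genotype and population (x axis). Rpl26 spans 272 to 308 in WT CD150hi and 201 to 231 in WT CD150neg.

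Also called were Rpl11, Rpl12, Rpl17, Rpl23a, Rpl24, Rpl35a, Rpl36, Rpl37a, Rps10, Rps19 and Rps21, and each loses its call when some WT mouse is left out. Values of 7 of them are given here, chosen after their values were seen, and the others below by role. Rpl12 had 31.4, 26.8, 28.3, 32.3 and 31.1 in WT CD150hi and 21.7, 23.4, 24.4, 26.2 and 21.6 in WT CD150neg, apart (log2 0.34, limma adjusted p 0.0462; 0.0273 to 0.523 over the alternatives). Rpl24 had 20.8, 23.9, 24.5, 17.8 and 22.9 against 13.9, 13.8, 18.04, 14.8 and 17.3, overlapping (log2 0.47, limma adjusted p 0.0286; 0.00858 to 0.221 over the alternatives). Rps10, which binds where messenger RNA enters, had 331, 318, 313, 313 and 331 against 262, 256, 243, 272 and 238, apart (log2 0.34, limma adjusted p 0.0450; 0.0112 to 0.267 over the alternatives). The call of Rpl12 ends without any 1 of the WT mice (limma adjusted p 0.0708 to 0.1695) or without 5A3+/del mouse 2, 3, 4 or 5 (limma adjusted p 0.0559 to 0.0679), and that of Rps10 without any 1 of the WT mice (limma adjusted p 0.0576 to 0.151) or without 5A3+/del mouse 3, 4 or 5 (limma adjusted p 0.0563 to 0.0694). That of Rpl24 ends without WT mouse 1, 2, 3 or 5 (limma adjusted p 0.0629 to 0.156). Rpl23a, a docking site for factors at the tunnel exit, had 140.0, 162, 155, 144 and 169.6 against 116, 101, 132, 149.6 and 119, overlapping (log2 0.33, limma adjusted p 0.0322; 0.00909 to 0.239 over the alternatives). Rpl36 of the large subunit had 1316, 1226, 1046, 1111 and 1148 against 967, 847, 781, 1031 and 831, apart (log2 0.39, limma adjusted p 0.0260; 0.00784 to 0.200 over the alternatives). The calls of Rpl23a (limma adjusted p 0.0638 to 0.214) and Rpl36 (limma adjusted p 0.0683 to 0.118) end without WT mouse 1, 2, 3 or 5, and that of Rpl23a also without 5A3+/del mouse 3 (0.0534). Rpl37a of the large subunit had 1483, 1177, 1177, 1226 and 1316 against 1148, 1009, 889, 1009 and 931, apart (log2 0.35, limma adjusted p 0.0415; 0.0134 to 0.182 over the alternatives). Rps21 of the small subunit had 465, 409.5, 339, 387 and 387 against 336, 295, 313, 331 and 300.0, apart (log2 0.33, limma adjusted p 0.0322; 0.00608 to 0.147 over the alternatives). The call of Rpl37a ends without any 1 of the WT mice (limma adjusted p 0.0641 to 0.1496) or without 5A3+/del mouse 2, 3, 4 or 5 (limma adjusted p 0.0514 to 0.0679), and that of Rps21 without WT mouse 1, 2, 4 or 5 (limma adjusted p 0.0693 to 0.141) or 5A3+/del mouse 3 or 4 (limma adjusted p 0.0509 to 0.0540).

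As WT mice 1 and 3 stand apart in other genes, a fit without both was added after the data were seen; 3 RP genes were then called, Rpl7, Rpl26 and Rpl27a. With mouse as a fixed block 17 are called, Rpl5 among them, and limma adjusted p is 0.0646 for Rpl11, 0.0528 for Rpl23a, 0.0511 for Rpl35a, 0.0622 for Rps10 and 0.0538 for Rps19. Rescaling without mitochondrially encoded genes ends the call of Rpl27a and, except for Rps21, all calls that end without some single mouse, with log2 of 0.12 for Rpl12 and 0.19 for Rps19. All calls that end without some single mouse also end with only the WT CD150hi and CD150neg libraries in the fit. For the genes of these calls the lowest log2 over all alternatives lay between 0.12 (Rpl12) and 0.31 (Rpl36a). A lost call alone does not show a smaller difference. Without normalization the calls of Rpl12 (log2 0.28) and Rps19 (log2 0.35) end, with the GC correction those of Rpl12, Rpl36 and Rps10, and under median scaling or with age as a covariate that of Rpl12. Over all alternatives log2 was at least 0.298 for Rpl36 and 0.2605 for Rps10. The part of the granulocyte RNA in these differences was not tested.

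Within single WT mice the median RP gene was 0.20, 0.21, 0.21, 0.14 and 0.32 higher in CD150hi than in CD150neg, for mice 1 to 5. Of 78 RP genes, 36 were higher in CD150hi in every WT mouse and 3 lower in every one. The means were ordered CD150hi over CD150lo over CD150neg for 54 RP genes in WT (31 large and 23 small) and the reverse for 5. CD150hi held the highest mean of the 3 populations for 64. No share over all genes is given beside counts within mice or of ordered means, here or below.

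Of the steps of the WT gradient, 0 RP genes were called between CD150hi and CD150lo, where 3.53 percent of all genes were called in either direction. At unadjusted p under 0.05 there were 8, beside 14.1 percent of all genes, and the median was 0.08 with 64 above 0. It was 0.09 for large and 0.07 for small subunit genes, and without WT mouse 5 the median of all members is 0.03. Rescaled without mitochondrially encoded genes it is 0.02, where the median of all genes is −0.05. Within mice the medians were −0.01, 0.00, 0.10, 0.00 and 0.32, so mouse 5 has the largest step. The smallest adjusted p was that of Rps14, at 459, 529, 450.3, 459 and 379 in WT CD150lo, overlapping its CD150hi values (log2 0.31, limma adjusted p 0.154). Rps21 had 372, 351, 305, 323 and 308 in CD150lo, overlapping CD150hi in its lowest library (log2 0.26, limma adjusted p 0.198). Rpl37a had 1264, 1068, 889, 1148 and 907 in CD150lo, also overlapping (log2 0.28, limma adjusted p 0.215). Rpl31 of the large subunit was 1 of 2 RP genes whose CD150hi libraries all exceeded the CD150lo ones, where 2.11 percent of all genes did so. Its values were 109, 106, 110.1, 108 and 111 in CD150hi and 99.5, 100.0, 87.1, 95.3 and 96.2 in CD150lo (log2 0.18, limma adjusted p 0.267), and it is the 1 RP gene called when no filter on low values is used.

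Between CD150lo and CD150neg of WT mice 0 RP genes were called, beside 0.188 percent of all genes in either direction. An unadjusted p under 0.05 was seen for 22, beside 8.75 percent of all genes. The difference was above 0 for 63 RP genes, with a median of 0.12 (0.13 large, 0.11 small) beside −0.01 over all genes. Within mice the medians were 0.14, 0.20, 0.08, 0.15 and 0.02. For 5 RP genes CD150lo was above CD150neg without overlap, as for 1.06 percent of all genes. Rpl7 was nearest to a call, at 238, 228, 226, 256 and 195 in CD150lo and, as given above, no more than 188 in CD150neg (log2 0.36, limma adjusted p 0.0847). Rps7, a small subunit protein that binds the p53 regulator Mdm2, had 421, 437, 428, 326 and 282 in CD150lo and 264, 242, 282, 323 and 277 in CD150neg, overlapping (log2 0.43, limma adjusted p 0.114). Rps13 had 336, 321, 316, 341 and 262 in CD150lo, where only mouse 5 falls among its CD150neg values (log2 0.28, limma adjusted p 0.228). Rpl26 had 272, 279, 255, 268 and 206 in CD150lo, overlapping CD150neg in mouse 5 only (log2 0.29, limma adjusted p 0.238). Rpl7 is called with no filter, with a filter at 10 FPKM and under median scaling, Rps7 without WT mouse 5, and both with a mean-variance trend.

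In 5A3+/del mice no RP gene was called along the same gradient. Between CD150hi and CD150neg 0 were called, where 6.16 percent of all genes were called in either direction, and 4 had an unadjusted p under 0.05, beside 16.9 percent of all genes. The difference was above 0 for 56 RP genes, with a median of 0.07 (0.07 large, 0.07 small). It is 0.01 without normalization and 0.04 under median scaling, where the median of all genes is −0.04 and −0.02. Within mice 1 to 4 the medians were 0.17, 0.05, 0.10 and −0.06, and 12 RP genes were higher in CD150hi in all 4 mice while 9 were lower in all. Only Rplp2 was above and only Rpl39 below without overlap, where 7.61 percent of all genes did either. Rpl13 came closest, at 308, 298, 295, 249 and 302 in 5A3+/del CD150hi and 195, 255, 228 and 239.8 in CD150neg, overlapping (log2 0.34, standard error 0.106, limma adjusted p 0.0532). Rplp2 had 272, 229, 231, 213 and 231 in CD150hi and 154, 205, 211 and 208 in CD150neg, apart (log2 0.28, limma adjusted p 0.148). Rps21 had 368, 323, 329, 336 and 396 in CD150hi and 336, 268, 298 and 279 in CD150neg, overlapping (log2 0.25, limma adjusted p 0.205). Rpl35a had 82.2, 80.3, 74.1, 70.8 and 80.3 in CD150hi and 49.2, 71.7, 70.0 and 67.6 in CD150neg, overlapping (log2 0.27, limma adjusted p 0.224). Rpl9 had 201, 225, 248, 225 and 229 in CD150hi and 134, 216, 203 and 229 in CD150neg, overlapping (log2 0.23, limma adjusted p 0.329). None of these 5 passed. Rpl13 is called under several alternatives, among them a random block for the mouse (1 call in place of 0), and without WT mouse 5 or 5A3+/del mouse 4.

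Between CD150hi and CD150lo of 5A3+/del mice 0 RP genes were called, beside 3.18 percent of all genes. An unadjusted p under 0.05 was seen for 2, beside 13.3 percent of all genes, and the median was 0.06 with 56 above 0. Only Rps15 had CD150hi above CD150lo without overlap, where 2.34 percent of all genes did. Within mice the medians were 0.04, 0.07, 0.12, 0.00 and 0.01. Rps21 of the small subunit had the smallest adjusted p, at 336, 285, 302, 289.8 and 282 in CD150lo, overlapping its CD150hi values (log2 0.23, limma adjusted p 0.299). Rpl13 had 259.9, 245, 256, 249 and 235 in CD150lo, overlapping (log2 0.22, limma adjusted p 0.331). Rpl37a had 1316, 1226, 1068, 951 and 1046 in CD150hi and 987, 907, 987, 889 and 987 in CD150lo, overlapping (log2 0.23, limma adjusted p 0.378). Rpl36 had 1264, 1111, 931, 812 and 931 in CD150hi and 869, 831, 889, 831 and 831 in CD150lo, overlapping (log2 0.23, limma adjusted p 0.390). Rplp2 had 194, 211, 209.9, 213 and 203 in CD150lo, overlapping by its highest library alone (log2 0.18, limma adjusted p 0.469).

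Between CD150lo and CD150neg of 5A3+/del mice 0 RP genes were called, beside 0.0389 percent of all genes, and 0 had an unadjusted p under 0.05, beside 4.95 percent. The median there was 0.02 with 44 above 0 and 34 below, and it is −0.03 without 5A3+/del mouse 1 and, relative to all genes, −0.04 without normalization. Within mice 1 to 4 the medians were 0.11, −0.02, −0.02 and −0.04. In all 4 mice 2 RP genes were higher in CD150lo and 8 were lower. Rpl14 and Rps7 were above without overlap, as were 0.902 percent of all genes. Rpl14 of the large subunit had 529, 536, 529, 544 and 557 in CD150lo and 437, 505, 473 and 509.7 in CD150neg (log2 0.17, limma adjusted p 1.00). Rps7 had 313, 313, 300.0, 308 and 295 in CD150lo and 266, 259.9, 256 and 277 in CD150neg (log2 0.21, limma adjusted p 1.00). The largest statistic was that of Rpl9, with 232, 222, 226, 207 and 229 in CD150lo, overlapping (log2 0.22, limma adjusted p 0.995). In 5A3+/del mouse 1 the CD150neg library was the lowest of its 4 for Rpl9 (134), Rps3a (1111) and Rps25 (725). Rps3a had 1657 ± 119.7 in CD150lo and 1455 ± 259 in CD150neg (log2 0.20, limma adjusted p 1.00). Rps25 had 1036 ± 51.8 in CD150lo and 919 ± 142 in CD150neg (log2 0.19, limma adjusted p 1.00). Means were ordered CD150hi over CD150lo over CD150neg for 29 RP genes in 5A3+/del (17 large and 12 small), beside 54 in WT.

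Whether the gradient differs between genotypes is tested by the contrast of the 2 gaps. For CD150hi against CD150neg 0 RP genes were called, as 0.00 percent of all genes were. At unadjusted p under 0.05 there were 12, beside 7.96 percent of all genes. The gap was lower in 5A3+/del for 61 of 78 RP genes, with a median of −0.16 beside 0.01 over all genes (−0.16 large, −0.17 small). The smallest adjusted p was that of Rpl12, which had 29.98 ± 2.33 in WT CD150hi and 23.5 ± 1.97 in WT CD150neg but 22.8 ± 2.72 and 26.1 ± 2.74 in 5A3+/del (difference of gaps log2 −0.53, limma adjusted p 0.377). Rpl7 had 243 ± 23.8 and 177 ± 7.13 in WT and 199 ± 16.6 and 190.1 ± 2.16 in 5A3+/del (difference of gaps log2 −0.39, limma adjusted p 0.426). Rpl26 had 292 ± 17.7 and 209 ± 12.5 in WT and 223 ± 11.9 and 203 ± 7.20 in 5A3+/del (difference of gaps log2 −0.35, limma adjusted p 0.482). Rpl34 of the large subunit had 166 ± 15.7 and 137 ± 17.8 in WT and 139 ± 12.3 and 149 ± 4.98 in 5A3+/del (difference of gaps log2 −0.38, limma adjusted p 0.504). None of these passed.

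For the gap of CD150lo against CD150neg 0 RP genes were called, beside 0.00 percent of all genes, and 10 had an unadjusted p under 0.05, beside 5.00 percent, with a median of −0.10 and 57 below 0. Rpl7 had 229 ± 22.1 in CD150lo and 177 ± 7.13 in CD150neg of WT and 188 ± 6.15 and 190.1 ± 2.16 in 5A3+/del (difference of gaps log2 −0.38, limma adjusted p 0.757). Rps27l, a small subunit paralogue, had 73.2 ± 11.8 and 55.7 ± 9.58 in WT and 56.5 ± 3.69 and 64.4 ± 10.8 in 5A3+/del (difference of gaps log2 −0.57, limma adjusted p 0.853). Rpl12 (log2 −0.41, limma adjusted p 0.898), Rpl34 (log2 −0.35, limma adjusted p 0.925) and Rps13 (log2 −0.30, limma adjusted p 0.931) came next. For the gap of CD150hi against CD150lo 0 were called, beside 0.00 percent, and 0 had an unadjusted p under 0.05, beside 3.98 percent, with a median of −0.04 that becomes 0.02 without WT mouse 5 and, relative to all genes, 0.01 when rescaled without mitochondrially encoded genes. Among the 5 largest statistics of either sign were those of Rps24 (log2 −0.22, limma adjusted p 0.999), Rpl29 (log2 −0.25, limma adjusted p 0.999) and Rps14 (log2 −0.19, limma adjusted p 0.999). A test that calls no gene does not show that the gaps are equal.

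Between genotypes in CD150hi, 1 RP gene was called lower in 5A3+/del, where 0.123 percent of all genes tested were called lower, and 0 were called higher. At unadjusted p under 0.05 there were 33 (18 large and 15 small), beside 13.1 percent of all genes. The difference was below 0 for 69 RP genes, 41 of 46 large and 28 of 32 small, with a median of −0.18 (−0.19 large, −0.18 small) beside 0.00 over all genes. For 16 RP genes every 5A3+/del library was below every WT library, as for 1.48 percent of all genes. In the same libraries the granulocyte and monocyte markers summed to a mean of 359 FPKM in WT (212 without mouse 1) and 39.4 in 5A3+/del (18.3 without mouse 2), and their part in this difference was not tested either. This comparison and the WT gradient share the 5 WT CD150hi libraries, so their values are given side by side only. The count was 7 with no filter or with a mean-variance trend, 5 with a filter at 10 FPKM, 2 with a random block for the mouse, and 0 under median scaling, with libraries rescaled without mitochondrially encoded genes, with only the CD150hi libraries in the fit, or without WT mice 1 and 3. It was 1 without WT mouse 5 or 5A3+/del mouse 3 and 0 without any 1 of the other mice.

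Of the RP genes that did not pass, 4 are shown because their values were seen to come close. Rpl26 had 215, 231, 238, 208 and 221 in 5A3+/del CD150hi, all below its WT values of 272 or more (log2 −0.39, standard error 0.0890, limma adjusted p 0.0523). Rps14 had 437, 437, 409.5, 360.1 and 409.5, below WT values of 523 or more (log2 −0.45, standard error 0.110, limma adjusted p 0.0772). Rpl27a had 84.0, 88.4, 96.2, 76.9 and 89.7, below WT values of 97.6 or more (log2 −0.40, standard error 0.0987, limma adjusted p 0.0772). Rps13 had 253, 253, 285, 248 and 264, below WT values of 298 or more (log2 −0.31, standard error 0.0866, limma adjusted p 0.111). All 4 are called with no filter, with a filter at 10 FPKM or with a mean-variance trend, and Rpl26 also with a random block for the mouse.

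In CD150lo 0 RP genes were called between genotypes, beside 0.0324 percent of all genes in either direction. Of 78, 22 had an unadjusted p under 0.05, beside 6.87 percent of all genes. The difference was below 0 for 66 of 78, with a median of −0.14 (−0.15 large, −0.13 small) beside 0.01 over all genes. For 6 RP genes 5A3+/del was below WT without overlap, as for 0.876 percent of all genes. Rpl26 had 272, 279, 255, 268 and 206 in WT and 218, 192, 206, 202 and 194 in 5A3+/del, overlapping (log2 −0.33, limma adjusted p 0.201). Rps13 had 336, 321, 316, 341 and 262 in WT and 246, 242, 253, 251 and 262 in 5A3+/del, overlapping (log2 −0.32, limma adjusted p 0.201). Rpl35 of the large subunit had 85.2, 77.7, 73.5, 80.6 and 60.8 in WT and 58.0, 63.2, 59.4, 59.8 and 56.6 in 5A3+/del, overlapping (log2 −0.33, limma adjusted p 0.271). Rpl27a had 116, 111, 105, 109 and 82.9 in WT and 87.4, 85.6, 79.6, 78.0 and 87.4 in 5A3+/del, overlapping (log2 −0.31, limma adjusted p 0.311). The count is 3, Rps13 and Rpl26 among them, with no filter, with a mean-variance trend, or without WT mouse 5, whose CD150lo library was the lowest of the 5 for both. In that library Rpl26 was 206 beside 255 or more in the other WT CD150lo libraries.

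In CD150neg 0 RP genes were called between genotypes, beside 0.0454 percent of all genes in either direction. Only Rplp2 had an unadjusted p under 0.05, beside 4.27 percent of all genes. The difference was below 0 for 52 and above 0 for 26, with a median of −0.03 (−0.02 large, −0.05 small), and it is 0.01 without 5A3+/del mouse 1 and, relative to all genes, 0.02 without normalization. Without overlap 1 RP gene was above and 1, Rplp2, below, where 1.51 percent of all genes did either. After Rplp2 the largest statistics were those of Rpl9, with 238, 211, 208, 215 and 225 in WT and 134, 216, 203 and 229 in 5A3+/del, overlapping (log2 −0.19, limma adjusted p 1.00), and Rpl22, with 205, 175, 179, 176 and 182 and 130.2, 175, 185 and 169.6, overlapping (log2 −0.16, limma adjusted p 1.00). Rps25 (log2 −0.18, limma adjusted p 1.00) and Rps9 (log2 −0.15, limma adjusted p 1.00) came next, and none passed.

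The medians of the RP genes are given under other scalings, relative to the median of all genes. Median scaling shifts all genes of a library alike, so in this measure it repeats the values without normalization by construction. Rescaling applies the same factor to all genes of a library and can differ from them only through the pseudocount. These values are therefore not separate checks of the direction. In CD150hi the median of 5A3+/del against WT was −0.19 as fitted, −0.28 without normalization, −0.28 under median scaling and −0.23 rescaled to the total without mitochondrially encoded genes. In WT, CD150hi against CD150neg gave 0.21, 0.33, 0.33 and 0.30, and the contrast of that gap between genotypes gave −0.17, −0.31, −0.31 and −0.27. In CD150lo the genotype medians were −0.15, −0.30, −0.30 and −0.27. In 5A3+/del, CD150hi against CD150neg gave 0.07, 0.05, 0.05 and 0.06, and CD150hi against CD150lo 0.06, 0.10, 0.10 and 0.10. The sign flips for the genotype difference in CD150neg (−0.03 to 0.02), for CD150lo against CD150neg in 5A3+/del (0.02 to −0.04) and for the contrast of the CD150hi to CD150lo gaps (−0.04 to 0.01 when rescaled). Rescaling without mitochondrially encoded genes moves the median of all genes to 0.17 between genotypes in CD150hi, 0.11 in CD150lo, −0.13 and −0.17 for CD150lo and CD150hi against CD150neg in WT, and 0.12 and 0.19 in their contrasts between genotypes.

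The genes named from here on were grouped by role. The P stalk of the large subunit, which recruits elongation factors, is made of Rplp0, Rplp1 and Rplp2. Rplp0 had 311, 326, 354, 346 and 346 in WT CD150hi and 289.8, 256, 339, 279 and 295 in 5A3+/del CD150hi, overlapping (log2 −0.21, limma adjusted p 0.341). Rplp1 had deposited FPKM of 3480.2, 3375, 2069, 2695 and 3124 in WT CD150hi and 2218, 1916, 2016, 2332 and 1794 in WT CD150neg, overlapping. On the normalized scale it was not called (log2 0.27, limma adjusted p 0.137), and it is called with no normalization or under median scaling. Rplp2 had 246, 218, 218, 248 and 219 in WT CD150neg and 154, 205, 211 and 208 in 5A3+/del CD150neg, apart but not called (log2 −0.25, limma adjusted p 1.00). All 3 were above 0 in WT CD150hi against CD150neg (median 0.16) and below 0 in 5A3+/del against WT CD150hi (median −0.21). Of all 78 RP genes 71 and 69 were so, with medians of 0.20 and −0.18.

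Rpl5 and Rpl11 form a particle with 5S ribosomal RNA that also restrains Mdm2. Rpl11 was called in the WT gradient, with 203, 237, 249, 228 and 242 in CD150hi and 199, 168, 187, 205 and 184 in CD150neg, overlapping only in mouse 1 of CD150hi (log2 0.30, standard error 0.0898, limma adjusted p 0.0334; 0.00557 to 0.243 over the alternatives). Its call ends without WT mouse 2 (0.176), 3 (0.128), 4 (0.0527) or 5 (0.131), or without 5A3+/del mouse 3 (0.0582). Rpl5 had 58.4, 51.8, 69.9, 69.6 and 61.6 in WT CD150hi and 46.2, 48.4, 49.0, 50.2 and 52.6 in WT CD150neg, overlapping (log2 0.32, limma adjusted p 0.0867), and it is called with the GC correction or with mouse as a fixed block. In CD150lo Rpl5 had 53.5, 56.4, 76.1, 64.2 and 55.1 in WT and 42.7, 45.0, 50.4, 49.2 and 50.8 in 5A3+/del, below without overlap but not called (log2 −0.34, limma adjusted p 0.418).

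Rpl4, Rpl17 and Rpl39 line the tunnel by which new protein leaves the large subunit. Rpl17 was called in the WT gradient, with 725, 617, 812, 617 and 574 in CD150hi and 544, 516, 499, 523 and 544 in CD150neg, apart (log2 0.34, standard error 0.0970, limma adjusted p 0.0244; 0.00452 to 0.393 over the alternatives). Its call ends without WT mouse 1 (0.0841), 2 (0.0554), 3 (0.146) or 4 (0.0541). Rpl4 had 847, 987, 1148, 951 and 967 in WT CD150hi and 1046, 1031, 1068, 1068 and 1046 in WT CD150neg, with a difference below 0 (log2 −0.11, limma adjusted p 0.605). Rpl39 had 509.7, 516, 529, 536 and 479 in 5A3+/del CD150hi, below its 574, 544, 591 and 574 in 5A3+/del CD150neg without a call (log2 −0.15, limma adjusted p 0.486).

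Rps2 and Rps3 form the entry channel for messenger RNA, and Rps23 and Rps15 reach toward the site where codons are read. Rps2 had 248, 231, 251, 253 and 209.9 in WT CD150lo and 188, 179.6, 203, 197 and 206 in 5A3+/del CD150lo, below without overlap but not called (log2 −0.29, limma adjusted p 0.350). Rps3 had 149.6, 161, 195, 155 and 168 in WT CD150hi and 154, 183, 184, 162 and 177 in 5A3+/del CD150hi, overlapping (log2 0.06, limma adjusted p 0.851). Rps23 had 781, 746, 907, 812 and 812 in WT CD150hi and 659, 674, 692, 644 and 707 in WT CD150neg, apart but not called (log2 0.26, limma adjusted p 0.0865); it is called with no filter, with a filter at 10 FPKM, with the exon length correction or with a mean-variance trend. Rps15 had 869, 762, 847, 762 and 781 in 5A3+/del CD150hi and 725, 725, 725, 692 and 692 in 5A3+/del CD150lo, above in each library and not called (log2 0.17, limma adjusted p 0.549).

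Rps6, the small subunit protein phosphorylated by S6 kinases, had differences opposite in sign to the median RP gene in both main comparisons. It had 266, 329, 349, 305 and 311 in WT CD150hi and 356, 401, 356, 349 and 339 in WT CD150neg, overlapping (log2 −0.21, limma adjusted p 0.233). In 5A3+/del CD150hi it had 311, 346, 368, 339 and 349 (log2 0.14, limma adjusted p 0.611 against WT). Rps27a, made as a fusion with ubiquitin, had 169, 170.4, 145, 161 and 178 in WT CD150hi and 161, 146, 161, 162 and 164 in WT CD150neg, overlapping (log2 0.05, limma adjusted p 0.802). Rpsa, also known as the laminin receptor, had 199, 216, 251, 237 and 222 in WT CD150hi and 202, 197, 209.9, 197 and 203 in 5A3+/del CD150hi, overlapping (log2 −0.15, limma adjusted p 0.491).

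Rpl22 is needed for T cell development, Rpl38 for translation of Hox messages, Rpl10 for joining of the subunits, and Rps4x is an X-linked small subunit protein. Rpl22 had 176 ± 10.7 in WT CD150hi and 183 ± 12.3 in WT CD150neg (log2 −0.06, limma adjusted p 0.786). Rpl38 had 201, 172, 135, 172 and 177 against 141, 124, 136, 150.4 and 129 in the same groups, overlapping because of WT mouse 3 (log2 0.33, limma adjusted p 0.0717). Rpl10 had 94.6, 121, 118, 109.7 and 107 in WT CD150hi and 98.0, 107, 104, 104 and 91.6 in 5A3+/del CD150hi, overlapping (log2 −0.12, limma adjusted p 0.596). Rps4x had 1148, 1111, 1399, 1579 and 1579 in WT CD150hi and 1111, 1148, 1046, 1093 and 1226 in WT CD150neg, overlapping (log2 0.26, limma adjusted p 0.189). None of the 4 was called in any comparison as fitted. For WT CD150hi against CD150neg, Rpl38 is called with a filter at 10 FPKM, with the exon length correction, with a mean-variance trend or without WT mouse 3, and Rps4x with no normalization or under median scaling.

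Rps19, Rps14, Rps24, Rps26 and Rpl35a are genes whose loss of a copy causes bone marrow failure in people. All 5 were above 0 in the WT gradient from CD150hi to CD150neg (median 0.34) and all 5 below 0 in 5A3+/del against WT CD150hi (median −0.31). Of all 78 RP genes 71 and 69 were so, with medians of 0.20 and −0.18. Rps19, the gene most often mutated in Diamond-Blackfan anaemia, had 95.8, 87.6, 89.8, 87.7 and 102 in WT CD150hi and 70.1, 70.4, 76.5, 84.2 and 65.0 in WT CD150neg, apart (log2 0.34, standard error 0.103, limma adjusted p 0.0358; 0.0133 to 0.225 over the alternatives). Its call ends without WT mouse 1 (0.139), 2 (0.0909), 3 (0.0623) or 5 (0.136), or without 5A3+/del mouse 3 (0.0601). Rpl35a had 96.0, 88.8, 79.4, 94.4 and 96.8 against 63.0, 68.2, 73.1, 78.0 and 66.0, apart (log2 0.38, standard error 0.112, limma adjusted p 0.0278; 0.0113 to 0.168 over the alternatives). Its call ends without WT mouse 1 (0.109), 2 (0.0818), 4 (0.0591) or 5 (0.116).

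Rps24 had deposited FPKM of 2066, 2042, 1784, 1952 and 2238 in WT CD150hi and 1481, 1605, 1681, 1483 and 1455 in 5A3+/del CD150hi, apart, and on the normalized scale it was apart but not called (log2 −0.31, limma adjusted p 0.126). Rps26 had 1177, 1399, 1226, 1148 and 1399 in WT CD150hi and 1009, 931, 1046, 967 and 1093 in 5A3+/del CD150hi, below without overlap but not called (log2 −0.33, standard error 0.0921, limma adjusted p 0.111). Rps24 and Rps26 are called with no filter or with a mean-variance trend. Over the 19 genes of the table named in Diamond-Blackfan anaemia, the median genotype difference in CD150hi was −0.25 with 18 below 0, 12 at unadjusted p under 0.05, beside 13.1 percent of all genes, and 0 called. Over all 78 RP genes it was −0.18, with 69 below 0 and 33 at unadjusted p under 0.05. In the WT gradient from CD150hi to CD150neg 6 of the 19 were called higher, beside 21 of all 78 RP genes and 5.47 percent of all genes. All 19 were above 0, beside 71 of the 78, and the median was 0.29, beside 0.20. In the 5A3+/del gradient their median was 0.07.

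The paralogues Rpl3l, Rpl10l, Rpl39l, Rps4l and Rps27l stand in for their parent proteins in some tissues. Rpl10l and Rps4l are not in the table, and Rpl3l and Rpl39l reached at most 2.97 and 2.11 FPKM in any library. Rps27l, a target of p53, had 91.2, 76.1, 72.7, 65.9 and 60.0 in WT CD150lo and 54.4, 57.5, 52.6, 55.9 and 62.3 in 5A3+/del CD150lo, overlapping (log2 −0.35, limma adjusted p 0.606). The 5 parents Rpl3, Rpl10, Rpl39, Rps4x and Rps27 had a median of 0.15 in WT CD150hi against CD150neg and −0.13 between genotypes in CD150hi.

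Of the 80 RP genes, 79 have a position in GENCODE mm9, on 19 chromosomes, most on chromosome 7 with 14. Of the 5 on chromosome 5 none lies in the stretch from the start of Fbxl13 to the end of Srpk2, the genes that bound the deletion, at chr5:20989665-23182266 in mm9. The nearest is Rpl9, 42.6 Mb from that stretch. Rpl9 had 241, 249, 238, 253 and 246 in WT CD150hi and 201, 225, 248, 225 and 229 in 5A3+/del CD150hi, overlapping (log2 −0.12, limma adjusted p 0.679). All annotated exons of a gene merged had a median length of 1464 bases for RP genes beside 2891 over all genes tested. This is not the length of a message. Over members the genotype difference in CD150hi had a Spearman rho of 0.156 with exon length and −0.078 with mean FPKM. For CD150hi against CD150neg in WT these were −0.022 and −0.069.

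Promoters from 250 bases before to 50 bases after the RefSeq start (GRCm38.p6) were found for 57 of the 78 RP genes tested, 14 of them among the 21 called in the WT gradient, and for 27025 genes in all. The 27025 include genes not tested here, so their shares are not those of the expressed genes. Searched on both strands, the binding site of ETS factors, CCGGAAG, was in 24 of 57 RP promoters (42.1 percent) beside 9.93 percent of all genes, and in 6 of the 14 called. TCTCGCGA, a CpG-rich element, was in 10 RP promoters (17.5 percent) beside 1.13 percent. AAGATGG, the site of YY1, was in 9 (15.8 percent) beside 7.28 percent. TATAAA was in 6 (10.5 percent) beside 15.7 percent. The 6 called genes with CCGGAAG are shown in windows of 30 bases on the strand of the gene, with the site in capitals, so that its surroundings can be compared. They are Rpl26 (chr11:68901559-68901588, + strand), Rpl27a (chr7:109519015-109519044, + strand, site on the opposite strand), Rpl11 (chr4:136053369-136053398, − strand), Rps18 (chr17:33955722-33955751, − strand), Rps21 (chr2:180257342-180257371, + strand) and Rps10 (chr17:27635255-27635284, − strand), all from RefSeq on GRCm38.p6. The sites of Rpl26 and Rpl11 begin after the start, in the first exon, and the others lie upstream. A match describes the sequence only.
Rpl26: aacttacagaaCCGGAAGtcgcgtgtagtt
Rpl27a: agctaccggggCTTCCGGgggcgggcgcca
Rpl11: aggccacggggCCGGAAGtctccctctctc
Rps18: agaagcaatttCCGGAAGtggacctccggg
Rps21: agtaccctgacCCGGAAGcacttaccgagg
Rps10: agccgcgcagcCCGGAAGagacgctgcgcc

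Related lists put the RP genes in context, each with the median of its genes. The symbol rule misses 6 RP or RP-like genes of the table, among them Fau, Gnb2l1, Rpl7l1, Rpl22l1 and Rpl36al, and the 6 had medians of −0.29 between genotypes in CD150hi and 0.35 for CD150hi against CD150neg in WT. In that WT gradient, where 5.47 percent of all genes were called higher and 4.58 percent lower, 3 of them were called higher, Gnb2l1 (log2 0.31, limma adjusted p 0.0207), Fau (log2 0.40, limma adjusted p 0.0385) and Rpl7l1 (log2 0.51, limma adjusted p 0.0440). Fau, which encodes a small subunit protein fused to a ubiquitin-like one, had 78.4, 64.9, 46.3, 66.7 and 68.7 in WT CD150hi and 45.3, 43.4, 49.0, 49.6 and 55.3 in WT CD150neg, overlapping through mouse 3 of CD150hi. Mitochondrial RP genes, 74 of 76 tested, had −0.13 between genotypes in CD150hi and 0.10 in the WT gradient, with 1 called higher, Mrpl23 (log2 0.63, limma adjusted p 0.0288). Ribosome biogenesis genes, 59 tested, had 0.02 and −0.04, with 1 called higher in the WT gradient, Nop10 (log2 0.49, limma adjusted p 0.0157). Other messages with a terminal oligopyrimidine tract, the sequence that RP messages share at their start, numbered 17 tested and had −0.04 and 0.01, with 1, Hnrnpa1, called lower in WT CD150hi than in CD150neg (log2 −0.72, limma adjusted p 0.000407). In that list Vim was also lower in WT CD150hi than in CD150lo (log2 −0.40, limma adjusted p 0.0253), beside 1.46 percent of all genes.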

How the data were processed

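The paper states that the RNA was converted to cDNA and amplified before the libraries were made, with further PCR. The part of this amplification in the differences between libraries was not tested. The deposited values are FPKM per gene, which the authors made from paired reads mapped to mm9. The submitters' processing notes name Bowtie 0.12.2 and HTSeq without saying what each did, and how reads with several matches were handled is not given. The deposited table holds 30025 genes and 29 libraries of RNA from sorted cells. From it were computed log2(FPKM + 1) for the 15409 genes with FPKM of at least 1 in at least 4 libraries, quantile normalized, and a limma 3.58.1 fit (R 4.3.3) of 6 group means with moderated statistics and Benjamini-Hochberg adjusted p within each of 12 contrasts: 3 of genotype, 6 of population, and 3 of the population gap between genotypes. Tables were made with Python 3.11.15 and pandas 2.3.3. The number of fragments behind each library was worked out from the steps between its FPKM values, using exon lengths of GENCODE mm9 for the 97.52 percent of genes that matched.

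The members and lists were chosen with earlier results of these data known. Named were up to 10 members called per contrast by adjusted p, or the 5 with the largest statistic where none passed, members chosen by role, and those of highest and lowest mean FPKM. Others were named after their values were seen. These were further members called in WT CD150hi against CD150neg and members close to a call between genotypes in CD150hi. Some genes are not reported here by name, though the counts and medians include them. Members and lists are described by counts and medians without a test of the list.

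Mouse codes in the labels pair the populations of a mouse. Deviations from the group means correlated between −0.04 and 0.235 over the 28 pairs of libraries of 1 mouse (median 0.0786, 10 above 0.1) and had a median of −0.03 over 112 pairs of different mice. Mouse as a block was an alternative. Others were a pseudocount of 0.1, no filter or a filter at 10 FPKM, no normalization, median scaling, rescaling without mitochondrially encoded genes, correction for exon length or GC, a mean-variance trend, age as covariate, only the groups compared, leaving out each mouse, and, added after the data were seen, leaving out WT mice 1 and 3.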

Additional observations from a re-analysis of the deposited data

Results flagged for a closer look

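A library was marked when the gap from its value to the next was so large a part of the range of its group that chance would give about 1 such group in 20 (Dixon's Q test). Of 312 groups of values of the 52 tested RP genes named here, 29 held such a library, where chance would give 15.6. Of 60 groups of measures per library 10 did.

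Xist was high in WT mouse 3 in all 3 populations, 303 FPKM in CD150hi, 234 in CD150lo and 319 in CD150neg. The summed FPKM of granulocyte and monocyte markers was high in WT CD150lo of mouse 1 (1406) and in 5A3+/del CD150hi of mouse 2 (124). In 5A3+/del the sums of B lymphoid markers were high in CD150hi of mouse 1 (32.3) and CD150lo of mouse 5 (160.1), of erythroid markers in CD150lo of mouse 2 (77.1), of T lymphoid markers in CD150lo of mouse 2 (4.89) and of megakaryocyte markers in CD150neg of mouse 1 (43.2). Cd79b gave 31.7 of the B lymphoid sum in CD150hi of mouse 1, and Ighm 150.8 of that in CD150lo of mouse 5.

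Among RP genes in normalized FPKM, 5 values of WT CD150hi stood out: Rps13 low in mouse 2 (298), Rpl36a high in mouse 5 (203), and in mouse 3 Rps7 low (298) and Rps25 (1316) and Rps27 (10000.4) high. In WT CD150lo mouse 5 was low in Rpl34 (133), Rps19 (65.1) and Rps27 (3248), and mouse 4 high in Rpl32 (3515) and Rps9 (383). WT CD150neg had most, with Rpl22 (205), Rpl26 (231), Rpl32 (2889.5) and Rps18 (222) high in mouse 1, Rps27a (146) and Rps27l (39.3) low and Rps6 (401) high in mouse 2, Rpl35 high in mouse 4 (81.2), and Rps27 low in mouse 5 (3515). Rps27 and Rpl32 are the most abundant RP genes, where quantile normalization leaves few possible values, and the deposited FPKM of Rps27 in WT CD150hi of mouse 3, 3902, was the lowest of that group.

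In 5A3+/del CD150hi, Rpl38 was high (174) and Rpl32 low (1892) in mouse 1, and Rpl13 (249) and Rps27 (3515) were low in mouse 4. In 5A3+/del CD150lo, Rps10 was high in mouse 1 (285), Rpl12 high in mouse 2 (28.4) and Rplp1 low in mouse 4 (1741). In 5A3+/del CD150neg, Rpl4 (847), Rpl32 (2214) and Rplp2 (154) were low in mouse 1. No correction was made for the number of groups examined.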

How the results depend on the processing

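The median of the RP genes kept its value within 1 SD of the library medians (0.0866) in 271 of 285 alternatives and moved in 14. That SD is wider than the median itself in 6 of 12 comparisons, so it shows little there, and the median changed sign in 11 alternatives: 4 between genotypes in CD150neg, 4 for 5A3+/del CD150lo against CD150neg and 3 for the difference of the CD150hi to CD150lo gap between genotypes. Keeping only RP genes with a mean of at least 10 FPKM leaves out none of those tested, so it is not counted. The count of RP genes called moved by more than 1.5 times in 42 of 285. Of the differences of single RP genes, 1547 were the same, 144 weaker, 25 stronger and 1 reversed. The causes were not tested.

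In CD150hi, the count of RP genes lower in 5A3+/del than in WT went from 1 to 7 with no filter, 5 with a filter at 10 FPKM, 7 with a mean-variance trend, and 0 under median scaling, when rescaled without mitochondrially encoded genes, without WT mice 1 and 3, or with only the groups compared. The median of −0.18 became −0.29 without normalization, −0.27 under median scaling and −0.0563 when rescaled. In CD150lo the count of 0 became 3 with no filter and 3 with a trend, and the median of −0.14 became −0.28 without normalization and −0.30 under median scaling.

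For WT CD150hi against CD150lo 1 was called with no filter. For WT CD150lo against CD150neg the count of 0 became 1 with no filter, 1 with a filter at 10 FPKM, 1 under median scaling and 2 with a trend, and the median of 0.12 became 0.22 without normalization and 0.28 under median scaling. For WT CD150hi against CD150neg the count of 21 became 5 when rescaled, 3 without WT mice 1 and 3, and 6 with only the groups compared. The median of 0.20 there became 0.32 under median scaling, 0.29 without normalization and 0.12 when rescaled. For 5A3+/del CD150lo against CD150neg the median of 0.02 became −0.0706 without normalization. For 5A3+/del CD150hi against CD150neg the median of 0.07 became 0.01 without normalization and 0.04 under median scaling, and the count of 0 became 1 with a pseudocount of 0.1, no filter, a filter at 10 FPKM, the exon length or GC correction, or a trend.

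The mouse as a random block, from the pairing in the labels, gave 2 calls in place of 1 between genotypes in CD150hi and 1 in place of 0 for 5A3+/del CD150hi against CD150neg. As a fixed block, which allows no genotype contrast within a population, it gave 17 in place of 21 for WT CD150hi against CD150neg. The block changed no other call.

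Between genotypes, the median of the CD150hi to CD150lo gap went from −0.04 to 0.0884 when rescaled, where Rps24 reversed from −0.22 to 0.0664. The CD150lo to CD150neg gap went from −0.10 to −0.31 without normalization and −0.34 under median scaling, and the CD150hi to CD150neg gap from −0.16 to −0.30 under both.

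Leave-one-out fits over 10 mice gave 0 to 1 calls between genotypes in CD150hi, 0 to 3 in CD150lo, 0 to 1 for WT CD150lo against CD150neg, 8 to 22 for WT CD150hi against CD150neg, 0 to 1 for 5A3+/del CD150hi against CD150neg, and 0 otherwise. The medians ranged from −0.20 to −0.16, −0.18 to −0.13 and −0.05 to 0.01 between genotypes in CD150hi, CD150lo and CD150neg. For CD150hi against CD150lo, CD150lo against CD150neg and CD150hi against CD150neg they ranged from 0.03 to 0.10, 0.11 to 0.14 and 0.18 to 0.22 in WT, from 0.03 to 0.07, −0.03 to 0.04 and 0.04 to 0.10 in 5A3+/del, and from −0.06 to 0.02, −0.15 to −0.07 and −0.18 to −0.11 for the difference between genotypes.

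The ratio of large to small subunit genes from medians was 0.670, 0.684 and 0.663 in WT CD150hi, CD150lo and CD150neg and 0.672, 0.676 and 0.684 in 5A3+/del. Without the 3 most abundant of each subunit it was 1.03, 1.02 and 1.07 in WT and 1.07, 1.07 and 1.09 in 5A3+/del.

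These are relative values of sorted pools. FPKM cannot show the amount of RNA per cell, messages do not give the amount of ribosomes, and reads shared with pseudogenes could not be separated. Groups of 5 or 4 mice leave small differences in single genes below the threshold. The CD150hi libraries of WT serve in the genotype and the population comparisons alike, so those results are not independent of each other. At these depths the 78 RP genes tested are far above the floor of 3 fragments. Which of these limits weighs most on the comparisons was not tested.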

Other observations

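Other marker lists, as summed FPKM with SD over libraries, bear on what the pools held beside RP genes. The sort's stain for B220, CD8, CD3, Ter119 and CD41 would remove mature cells of these lineages. Erythroid markers summed to 33.1 ± 11.3 in CD150hi, 67.8 ± 19.0 in CD150lo and 59.1 ± 32.8 in CD150neg of WT, and 31.7 ± 13.4, 50.7 ± 15.2 and 43.3 ± 17.6 in 5A3+/del. Megakaryocyte markers summed to 39.7 ± 13.2, 35.4 ± 5.69 and 39.6 ± 11.6 in WT and 31.5 ± 7.45, 42.2 ± 7.28 and 31.0 ± 8.26 in 5A3+/del. B lymphoid markers summed to 13.2 ± 5.17, 39.3 ± 12.3 and 59.1 ± 20.9 in WT and 15.8 ± 9.50, 51.7 ± 61.0 and 59.2 ± 8.83 in 5A3+/del. In 5A3+/del CD150lo mouse 5 had 160.1 beside 30.5 or less in the other mice, and without it the mean is 24.6 ± 7.69, below that of WT CD150lo. T lymphoid markers stayed at 3.18 or less on average in every group. Markers of cycling cells summed to 102 ± 19.3, 121 ± 17.7 and 122 ± 19.2 in WT and 102 ± 14.6, 121 ± 13.9 and 131 ± 18.1 in 5A3+/del.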
